A study of Mus musculus with 11 samples.

Results

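The genes described here are 10 proteoglycan core proteins: Dcn, Bgn, Aspn, Lum, Fmod, Prelp, Omd and Ogn of the small leucine-rich family, and the large proteoglycans Vcan and Acan. They were taken by symbol, 10 of the 21684 genes in the counts table, and each symbol matched 1 row. RNA was sequenced from NIH/3T3, an established mouse fibroblast line, after 24 h of serum starvation, a state in which these cells grow a primary cilium. The 4 groups were WT with 2 libraries and 3 libraries each of the Nono KO, Sox5 KO and Xap5 KO lines, and all of them had the same starvation. The labels state no guide, allele or clone for a knockout and do not say whether replicates were separate cultures, so each knockout is treated as 1 line and the tests measure the spread between these libraries, which may be technical. The series asks which genes the lines share and which are particular to a line, and for these genes the question is how the RNA of the matrix proteoglycans differs between the 4 genotypes.

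Small leucine-rich proteoglycans are secreted proteins whose curved leucine-rich repeats bind fibrillar collagen and regulate how fibrils grow and space. Many carry chondroitin, dermatan or keratan sulfate chains, and several also bind growth factors such as TGF-beta. Versican (Vcan) and aggrecan (Acan) are much larger, bind hyaluronan through their amino-terminal globule, and hold water in loose connective tissue and in cartilage. Fibroblasts are a main source of decorin, biglycan, lumican and versican, whereas aggrecan is best known from cartilage, where Sox9, Sox5 and Sox6 act together on its gene.

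The libraries held 30205878 to 43498383 counts. Fam50a, the mouse symbol of Xap5, had 7.49 to 7.91 CPM in its own knockout line and at least 46.3 CPM in every other library, and Nono had 27.6 to 34.0 CPM in its own line and at least 350.8 CPM elsewhere. Sox5 RNA was at 45.9 and 49.7 CPM in the WT libraries, at 11.9 to 15.02 CPM in the Xap5 KO libraries, at 7.01 to 8.75 CPM in the Nono KO libraries and at 12.6 to 13.9 CPM in the Sox5 KO libraries, so a low Sox5 level was common to all 3 knockout lines. CPM is the count normalised to sequencing depth, here with TMM-scaled library sizes. All 9 tested genes of chromosome Y were lower in each of the 3 knockout lines than in WT, so WT differs from the knockout lines by more than the targeted genes, and the part of this in the results against WT was not tested. All 10 fibroblast markers on the list were expressed. Their summed level was 25065 and 25154 CPM in the WT libraries, 18813 to 20045 CPM in the Xap5 KO libraries, 49413 to 54294 CPM in the Nono KO libraries and 19793 to 20264 CPM in the Sox5 KO libraries. The osteoblast markers summed to 78.1 and 80.4 CPM in WT and 70.1 to 87.0 CPM in Xap5 KO. They summed to 88.2 to 92.7 CPM in Nono KO and 66.9 to 78.2 CPM in Sox5 KO, mostly Runx2. The tendon markers summed to 103 and 109 CPM in WT and 111 to 123 CPM in Xap5 KO. They summed to 97.4 to 113 CPM in Nono KO and 65.8 to 75.8 CPM in Sox5 KO, mostly Egr1. Summed markers stayed at or below 0.323 CPM for epithelium, 2.79 CPM for endothelium and 10.3 CPM for leukocytes. The leukocyte sum was 8.07 to 10.3 CPM in the Nono KO libraries and at most 2.51 CPM elsewhere. Most of it was Ptprc, at 5.996 to 7.31 CPM in the Nono KO libraries and at most 0.412 CPM elsewhere, and Lyz2, at 1.53 to 2.31 CPM there, 1.14 to 1.59 CPM for Sox5 KO and at most 0.159 CPM in the other 2 lines, while Cd52 and Tyrobp had 3 counts or fewer in every library.

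Mean RNA was highest in Nono KO for 8 of the 10 genes, all but Bgn and Acan. The share of all genes with that property was not counted, and for Prelp the difference from Xap5 KO was not called. Compared with WT, 9 of the 10 genes were called higher in Nono KO and none lower, and Acan was not tested; of all tested genes 48.6% were called, 23.5% higher and 25.1% lower. In Xap5 KO 5 of the 10 were called higher and 3 lower, where 45.5% of all tested genes were called, 23.2% higher and 22.3% lower. In Sox5 KO 6 of the 10 were called higher and 2 lower, where 60.9% of all tested genes were called, 30.6% higher and 30.3% lower. A call is an adjusted p under 0.05 from the quasi-likelihood test of edgeR, with Benjamini-Hochberg adjustment over the 13332 tested genes, and is written as edgeR adjusted p. Fmod passed the filter on low counts only through its Nono KO and Xap5 KO libraries, so it had to differ; without it 8 genes were higher in Nono KO, 4 higher and 3 lower in Xap5 KO, and 6 higher and 2 lower in Sox5 KO. Called changes of at least 2-fold in either direction against WT numbered 6 for the Xap5 line, 7 for the Nono line and 6 for the Sox5 line, a size reached by 10.3%, 11.2% and 17.2% of all tested genes. The numbers for the Xap5 and Nono lines include Fmod. Of the 10 fibroblast markers 8 were called higher in Nono KO and none lower, their summed level was highest there as well, as was that of the leukocyte markers, and the part of either in this result was not tested. In bulk RNA, more cells of a kind and more RNA per cell cannot be told apart.

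**Figure D1:**
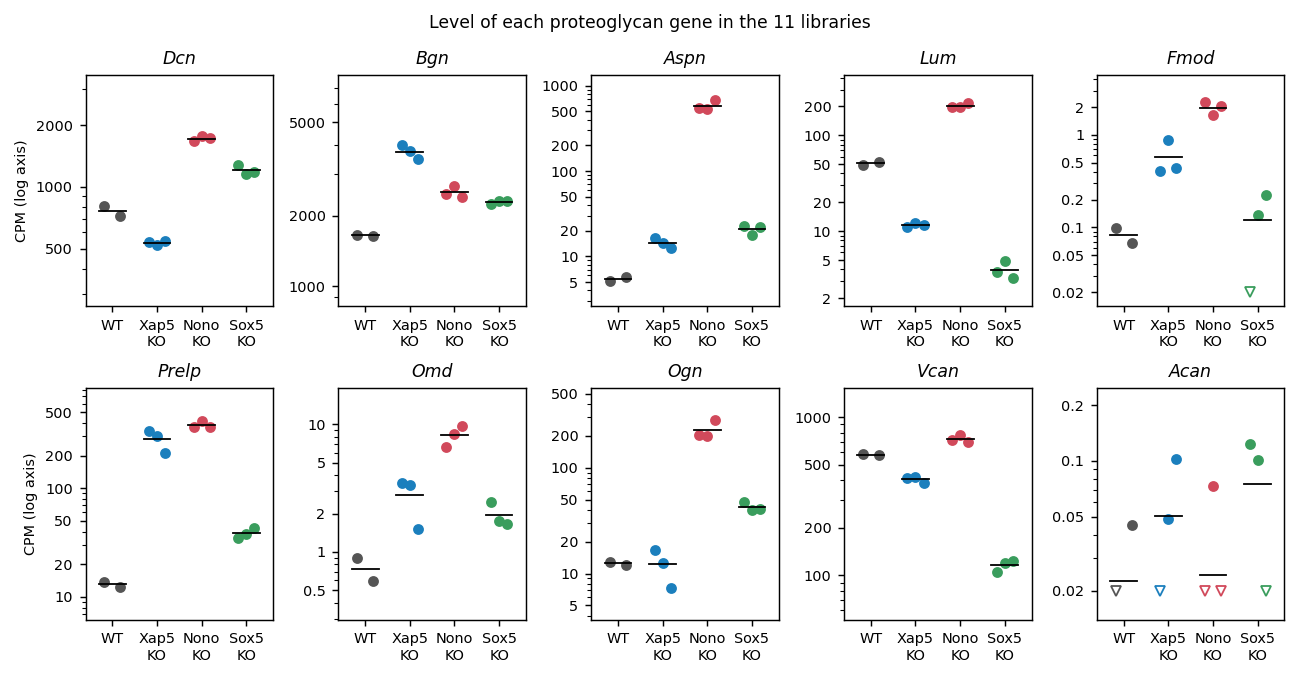
CPM of the 10 proteoglycan genes on a log axis in each library of the 4 lines; points are libraries, bars are group means, and open triangles at the bottom mark libraries with 0 counts. Nono KO has the highest mean for 8 of the 10 genes, among them Prelp without a called difference from Xap5 KO. Bgn is highest in Xap5 KO, and Acan stays near the counting floor in every line.

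Of the class I proteins, decorin (Dcn), which binds collagen I and TGF-beta, had 805 and 722 CPM in the WT libraries. The Xap5 KO libraries had 537, 524 and 545 CPM, and levels were 1668, 1761 and 1727 CPM in the Nono KO libraries and 1283, 1151 and 1184 CPM in the Sox5 KO libraries. The 4 lines did not overlap, and the order was Nono KO, Sox5 KO, WT and Xap5 KO. Dcn rose by 1.17 on the log2 scale in Nono KO (SE 0.0654, edgeR adjusted p = 3.60e-12) and by 0.66 in Sox5 KO (SE 0.0642, edgeR adjusted p = 1.40e-08). It fell by 0.51 in Xap5 KO (SE 0.0625, edgeR adjusted p = 8.54e-07). Dcn lies on chromosome 10, where the median log2 change of the 643 tested genes was -0.46 (Xap5 KO), -0.14 (Nono KO) and, for the Sox5 KO line, -0.32. With an offset for each chromosome's median, the change of Dcn in Xap5 KO was -0.04 and was not called (edgeR adjusted p = 0.682), while Sox5 KO stood at 0.96 and was called, as was Nono KO.

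Biglycan (Bgn), the closest relative of decorin and a carrier of chondroitin or dermatan sulfate, was the most abundant of the 10. Its level was 1654 and 1639 CPM in the WT libraries, 3997, 3759 and 3493 CPM in the Xap5 KO libraries, 2484, 2683 and 2404 CPM in the Nono KO libraries, and 2241, 2312 and 2297 CPM in the Sox5 KO libraries. Every knockout library was above both WT libraries, and Xap5 KO was above the other lines. Bgn rose by 1.19 on the log2 scale in Xap5 KO (SE 0.0683, edgeR adjusted p = 8.66e-12), by 0.62 in Nono KO (SE 0.0668, edgeR adjusted p = 1.33e-07) and by 0.47 in Sox5 KO (SE 0.0665, edgeR adjusted p = 2.87e-06; 0.30 and called with an offset for length and GC content). It is on chromosome X, whose 438 tested genes had median changes of 0.36 (Xap5 KO), -0.33 (Nono KO) and, for the Sox5 KO line, 0.14. With the chromosome offset Bgn was at 0.83 in Xap5 KO and at 1.00 in Nono KO, and the difference between these lines, 0.57 without the offset (edgeR adjusted p = 5.43e-08), turned to -0.17 (edgeR adjusted p = 0.0225). The small difference of 0.14 between Nono KO and Sox5 KO (edgeR adjusted p = 0.0375) was lost when any of 5 of the 6 libraries of the pair was left out and with library totals alone, and was 0.65 and called with the chromosome offset.

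Asporin (Aspn), a class I protein without a chondroitin chain that binds TGF-beta and collagen, had the largest fold change of the 9 tested genes. It was at 5.19 and 5.79 CPM in the WT libraries, at 16.6, 14.4 and 12.6 CPM in the Xap5 KO libraries, at 549, 528 and 676 CPM in the Nono KO libraries, and at 22.6, 17.7 and 21.9 CPM in the Sox5 KO libraries. The Nono KO libraries lay far above all others, and both other knockouts lay above WT. Aspn was 106-fold higher in Nono KO than in WT, a log2 change of 6.73 (SE 0.191, edgeR adjusted p = 3.39e-10). Its rise was 1.40 in Xap5 KO (SE 0.176, edgeR adjusted p = 8.39e-05) and 1.92 in Sox5 KO (SE 0.175, edgeR adjusted p = 3.50e-06). Against the other knockouts, Nono KO was 40.3-fold above Xap5 KO and 28.1-fold above Sox5 KO. An exon of Aspn overlaps one of Cenpp on the opposite strand, and the strand handling of the counts is not given in the sources used here. Cenpp had a mean of 0.799 CPM in the WT libraries and 3.84 CPM in the Nono KO libraries.

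**Figure D2:**
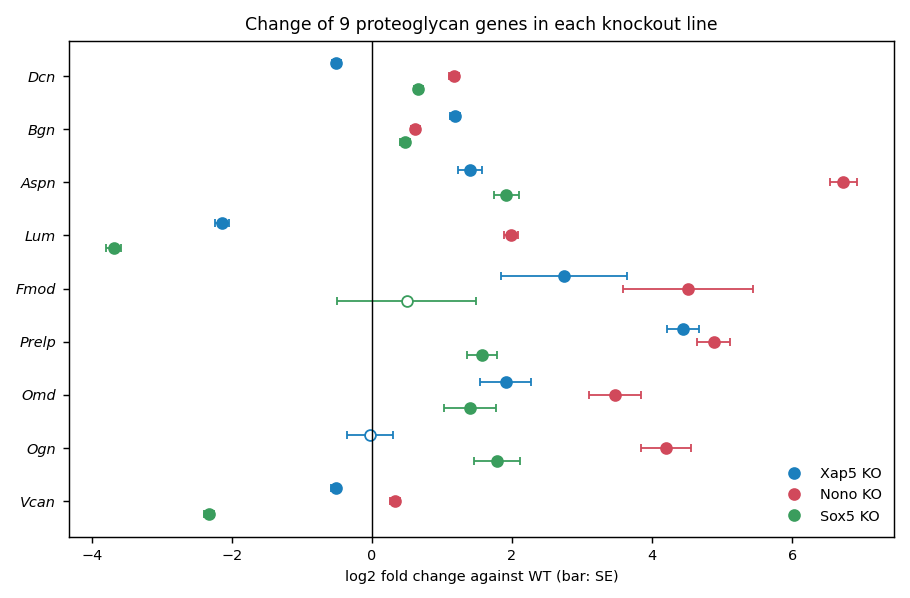
Log2 fold change against WT, with its standard error, of the 9 tested proteoglycan genes in the lines Xap5, Nono and Sox5 KO; filled points are called and open points are not. All 9 points of Nono KO lie above 0, whereas Lum and Vcan lie below 0 in Xap5 KO and Sox5 KO.

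In class II, lumican (Lum), a keratan sulfate proteoglycan that limits collagen fibril width, moved in opposite directions in different lines. Its level was 49.5 and 52.99 CPM in the WT libraries, 10.99, 12.2 and 11.5 CPM in the Xap5 KO libraries, 196, 195 and 215 CPM in the Nono KO libraries, and 3.74, 4.91 and 3.29 CPM in the Sox5 KO libraries. No library of a line overlapped those of another. Lum rose 3.95-fold in Nono KO (log2 1.98, SE 0.0975, edgeR adjusted p = 4.57e-13). It was lower than WT by 4.42-fold in Xap5 KO (log2 -2.14, SE 0.0960, edgeR adjusted p = 1.42e-13) and by 12.9-fold in Sox5 KO (log2 -3.69, SE 0.109, edgeR adjusted p = 8.79e-17). Nono KO and Sox5 KO thus differed by 51.0-fold (edgeR adjusted p = 1.35e-19), the widest gap among the 9 tested proteoglycans in that comparison. With the chromosome offset the falls were 1.67 and 3.39 on the log2 scale, and both were called.

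Prolargin (Prelp), whose basic amino terminus binds heparan sulfate and links basement membranes to collagen, had 13.8 and 12.4 CPM in the WT libraries. It was at 335, 303 and 212 CPM in the Xap5 KO libraries, at 369, 419 and 366 CPM in the Nono KO libraries, and at 35.1, 38.3 and 42.9 CPM in the Sox5 KO libraries. All Xap5 KO and Nono KO libraries lay far above WT, and those of Sox5 KO lay between. Prelp rose 21.7-fold in Xap5 KO (log2 4.44, SE 0.232, edgeR adjusted p = 1.14e-06), 29.4-fold in Nono KO (log2 4.88, SE 0.236, edgeR adjusted p = 5.70e-07) and 2.96-fold in Sox5 KO (log2 1.57, SE 0.215, edgeR adjusted p = 0.000288). The difference of 0.44 between Nono KO and Xap5 KO was not called (SE 0.162, edgeR adjusted p = 0.0510), and 5 alternatives called it, among them DESeq2 with 0.46 (adjusted p = 0.0115). Without the low Xap5 KO replicate 3 the difference was smaller, 0.28, and called (edgeR adjusted p = 0.00564). The annotation has Gm15851 overlapping Prelp on the opposite strand, and it was not analysed here.

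Osteomodulin (Omd), a keratan sulfate protein named from bone, was a low gene, with 36 and 26 counts in WT. Its level was 0.893 and 0.590 CPM in the WT libraries, 3.45, 3.36 and 1.52 CPM in the Xap5 KO libraries, 6.59, 8.35 and 9.64 CPM in the Nono KO libraries, and 2.44, 1.76 and 1.66 CPM in the Sox5 KO libraries. All knockout libraries were above WT, and Xap5 KO and Sox5 KO overlapped. The log2 rise was 3.46 in Nono KO (SE 0.372, edgeR adjusted p = 1.15e-07), 1.91 in Xap5 KO (SE 0.363, edgeR adjusted p = 0.000198) and 1.40 in Sox5 KO (SE 0.367, edgeR adjusted p = 0.00238). Xap5 KO and Sox5 KO differed by 0.50, which was not called (SE 0.294, edgeR adjusted p = 0.144); without Xap5 KO replicate 3 the difference was 0.80 and was called (edgeR adjusted p = 0.0129).

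Fibromodulin (Fmod), which binds collagen I at the site lumican uses, was close to the counting floor. It had 4 and 3 counts in WT, 16, 36 and 17 in Xap5 KO, 91, 67 and 74 in Nono KO, and 0, 4 and 7 in Sox5 KO. Summed counts gave a ratio of 23.7 between Nono KO and WT, with an exact 95% interval of 11.3 to 59.7 that covers counting error only. The same ratio was 7.00 for Xap5 KO (3.22 to 18.1) and 1.42 for Sox5 KO (0.504 to 4.33). Fmod was called higher in Nono KO (log2 4.51, SE 0.923, edgeR adjusted p = 0.000358) and in Xap5 KO (log2 2.74, SE 0.901, edgeR adjusted p = 0.0170). In Sox5 KO its log2 change was 0.50 (SE 0.991, edgeR adjusted p = 0.691), with overlapping groups. The call in Xap5 KO was lost without WT replicate 1, without WT replicate 2 and without Xap5 KO replicate 2, with log2 values of 3.01, 2.49 and 2.30.

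The class III member osteoglycin (Ogn, also called mimecan) was at 12.95 and 12.01 CPM in the WT libraries and at 16.6, 12.6 and 7.34 CPM in the Xap5 KO libraries, which overlapped. It was at 204, 199 and 284 CPM in the Nono KO libraries and at 47.5, 40.02 and 41.1 CPM in the Sox5 KO libraries, both apart from WT and from each other. Ogn rose 18.4-fold in Nono KO (log2 4.20, SE 0.353, edgeR adjusted p = 3.15e-05) and 3.44-fold in Sox5 KO (log2 1.78, SE 0.326, edgeR adjusted p = 0.00198). Its log2 change in Xap5 KO was -0.03 (SE 0.327, edgeR adjusted p = 0.953). That value was 0.22 without Xap5 KO replicate 3 and 0.01 without WT replicate 1, neither of them called.

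Among the large proteoglycans, versican (Vcan) was at 585 and 576 CPM in the WT libraries, at 414, 418 and 385 CPM in the Xap5 KO libraries, at 719, 767 and 700.04 CPM in the Nono KO libraries, and at 105, 119.9 and 122 CPM in the Sox5 KO libraries. The lines did not overlap. Vcan was 5.02-fold lower than WT in Sox5 KO (log2 -2.33, SE 0.0672, edgeR adjusted p = 7.54e-17) and 1.43-fold lower in Xap5 KO (log2 -0.52, SE 0.0660, edgeR adjusted p = 1.56e-06). It was 1.26-fold higher in Nono KO (log2 0.33, SE 0.0671, edgeR adjusted p = 0.000358). Its longest annotated transcript has 12427 bases, the longest of the 10, and once length and GC content were offset the change in Sox5 KO was -1.56, still called (edgeR adjusted p = 6.25e-15). The chromosome offset gave Vcan -0.83 in Xap5 KO, and library totals alone gave it 0.16 in Nono KO, both called (edgeR adjusted p = 1.36e-09 and 0.0377).

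Aggrecan (Acan) had 0 and 2 counts in WT, 0, 2 and 4 in Xap5 KO, 0, 3 and 0 in Nono KO, and 4, 3 and 0 in Sox5 KO. It was too low for the test, and 3 counts in a library, set here as the counting floor, correspond to 0.0681 to 0.102 CPM. The cartilage factor Sox9 was nevertheless expressed, at 340 and 342 CPM in the WT libraries, and had log2 changes of -1.25, -0.81 and -1.68 in the lines Xap5, Nono and Sox5 KO (edgeR adjusted p = 1.66e-11, 1.08e-08 and 7.42e-14). Of the 10 cartilage markers on the list, Col9a1, Col9a2, Snorc and Cnmd had 3 counts or fewer in every library, and the summed level of the 10, most of it Sox9, was 345 to 349 CPM (WT), 141 to 160 CPM (Xap5 KO), 187 to 214 CPM (Nono KO) and 111 to 132 CPM (Sox5 KO). Col2a1, the main cartilage collagen and a marker on the same list, went the other way in Sox5 KO, with 40 and 67 counts in WT and 367, 305 and 375 in Sox5 KO (log2 3.15, SE 0.792, edgeR adjusted p = 0.00731). Hapln1, the link protein that ties aggrecan and versican to hyaluronan, had at most 4 counts in a library.

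The direct comparisons between knockouts put Nono KO on top for most of the family. Nono KO was higher than Sox5 KO in 9 of the 10 genes and lower in none, against 63.5% of all tested genes called in that comparison, 30.9% higher and 32.6% lower. Xap5 KO was lower than Nono KO in 7 and higher in 1, Bgn, where 53.0% of all tested genes were called, 27.1% higher and 25.9% lower. Xap5 KO was higher than Sox5 KO in 5 (Bgn, Lum, Fmod, Prelp and Vcan) and lower in 3 (Dcn, Ogn and Aspn), where 61.6% of all tested genes were called, 31.1% higher and 30.4% lower. Without Fmod, which passed the filter through Nono KO and Xap5 KO, Nono KO was higher than Sox5 KO in 8 and lower in 0. Xap5 KO was then lower than Nono KO in 6 and higher in 1, and higher than Sox5 KO in 4 and lower in 3. Called differences of at least 2-fold numbered 7 between Nono KO and Sox5 KO, 6 between Xap5 KO and Nono KO, and 6 between Xap5 KO and Sox5 KO, against 17.0%, 11.1% and 15.0% of all tested genes. Each of these numbers includes Fmod. The call of Fmod between Xap5 KO and Nono KO was lost without Xap5 KO replicate 1 or 3 or Nono KO replicate 1 or 3, and that between Xap5 KO and Sox5 KO without Xap5 KO replicate 2 or Sox5 KO replicate 1. For 7 genes (Dcn, Lum, Fmod, Ogn, Aspn, Omd and Vcan) Nono KO was called higher than each of the 3 other lines, a position held by 8.71% of all tested genes. For Fmod the filter bore on this position. Prelp had its highest mean in Nono KO as well, without a called difference from Xap5 KO.

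Of the 8 small leucine-rich genes, all but Bgn, which is alone on chromosome X, lie next to another of them, a property that the choice of genes did not use. Aspn, Omd and Ogn are adjacent on chromosome 13 in GENCODE M21, Prelp and Fmod on chromosome 1, and Dcn and Lum on chromosome 10. Within the chromosome 13 cluster, Aspn, Omd and Ogn had log2 changes of 6.73, 3.46 and 4.20 in Nono KO. Their neighbours had smaller log2 changes in that line. Ecm2, another leucine-rich matrix gene next to Aspn, had a log2 change of -0.14 in Nono KO (not called), Nol8 had 0.12 (not called), and Iars and Cenpp rose by 0.95 and 2.26. The medians of all 502 tested genes of chromosome 13 were 0.29 (Xap5 KO), 0.09 (Nono KO) and, for the Sox5 KO line, -0.00382. On chromosome 1, Btg2 beside Fmod rose by 1.81 in Nono KO and Optc beside Prelp was not tested. On chromosome 10, Btg1 beside Dcn fell by 0.67 in Nono KO, in which Dcn and Lum rose, and fell by 1.06 in Sox5 KO. Btg1 also fell by 1.20 in Xap5 KO, in which Dcn and Lum fell too. Kera and Epyc, the leucine-rich genes that follow Lum, were too low to test.

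**Figure D3:**
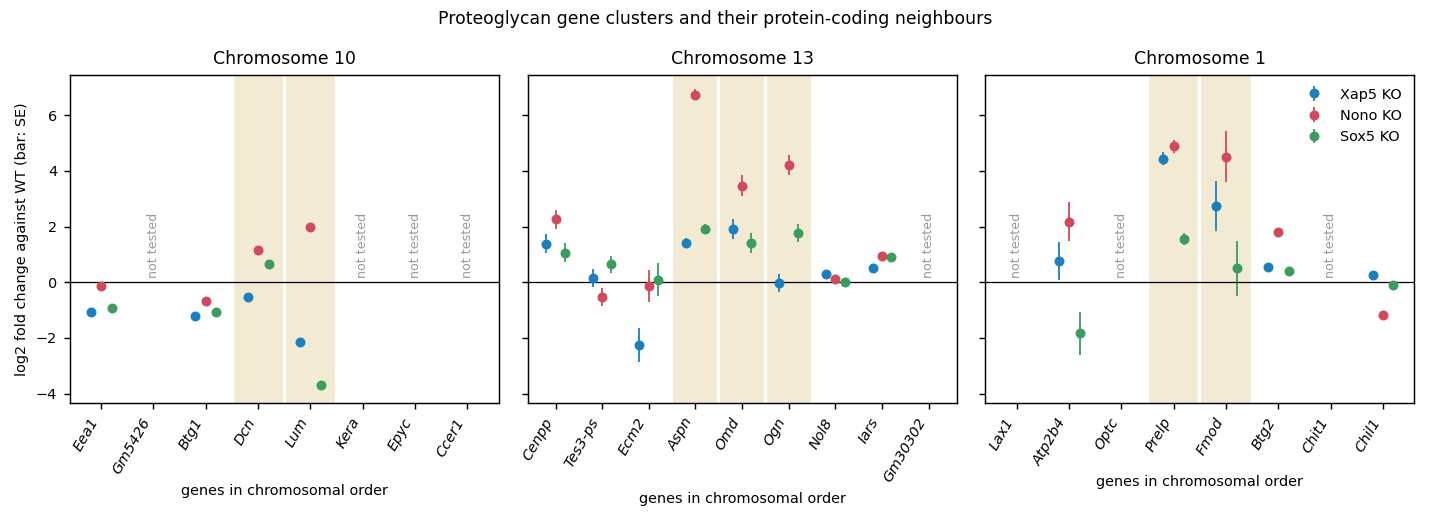
Log2 fold change against WT, with its standard error, of the tested genes in chromosomal order around 3 proteoglycan clusters; shaded columns are the proteoglycan genes and grey words mark genes too low to test. Aspn, Omd and Ogn stand above their chromosome 13 neighbours in Nono KO, while Dcn and Lum part in Sox5 KO.

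Promoter sequences are shown for the chromosome 13 trio, which rose together in Nono KO, and for Prelp, which had the largest rise of these genes in Xap5 KO. RefSeq promoters of build GRCm38.p6 matched 8 of the 10 genes, all but Dcn and Lum. Each line gives the 250 bases before the RefSeq gene start, 5′ to 3′ on the strand of the gene, and capitals mark AACAAT or its reverse complement ATTGTT, the core that SOX proteins bind. These coordinates belong to GRCm38.p6 and not to the build of the counts.
Aspn (chr13:49544193-49544442, plus strand): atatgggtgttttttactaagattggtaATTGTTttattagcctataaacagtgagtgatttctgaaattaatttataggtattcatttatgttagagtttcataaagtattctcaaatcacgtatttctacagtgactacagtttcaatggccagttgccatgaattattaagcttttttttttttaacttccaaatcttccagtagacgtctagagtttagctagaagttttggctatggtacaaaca
Omd (chr13:49582212-49582461, plus strand): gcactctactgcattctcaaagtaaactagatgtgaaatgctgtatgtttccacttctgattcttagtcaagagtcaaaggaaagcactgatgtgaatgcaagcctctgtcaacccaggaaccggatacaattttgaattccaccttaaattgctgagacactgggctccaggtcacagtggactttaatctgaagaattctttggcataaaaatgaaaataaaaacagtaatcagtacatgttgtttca
Ogn (chr13:49607765-49608014, plus strand): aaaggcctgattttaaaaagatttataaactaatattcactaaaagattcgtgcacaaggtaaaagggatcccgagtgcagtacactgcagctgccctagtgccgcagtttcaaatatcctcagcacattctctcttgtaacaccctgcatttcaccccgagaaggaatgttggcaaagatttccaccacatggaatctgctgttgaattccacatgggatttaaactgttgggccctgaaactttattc
Prelp (chr1:133921402-133921651, minus strand): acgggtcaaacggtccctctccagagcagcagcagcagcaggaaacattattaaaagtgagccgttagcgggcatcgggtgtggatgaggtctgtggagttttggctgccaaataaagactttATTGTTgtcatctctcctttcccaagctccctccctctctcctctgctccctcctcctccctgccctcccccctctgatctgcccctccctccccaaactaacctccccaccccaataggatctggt
The core was found in the windows of Aspn, at 222 to 217 bases before the start, and of Prelp, at 127 to 122 bases, and in none of the other 6 members with a sequence. Over the 32851 promoters in the RefSeq table, 9.42% held it in a window of the same length. A match of this kind is a description and not a site. The Aspn window had 30.0% GC, Omd 38.4% and Ogn 42.0%, against a median of 52.4% over all promoters. Fmod had 51.2% and Prelp 55.6%, while Vcan, Bgn and Acan had 62.4%, 64.4% and 74.4%.

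Levels of different genes were compared per kilobase of the longest annotated transcript. In WT, Bgn was at 618 CPM per kb, Dcn at 163, Vcan at 46.7 and Lum at 20.9, and the other members were each below 5 CPM per kb. Summed over the 10 genes the level was 859 ± 16.6 CPM per kb in WT (SD, n = 2), 1649 ± 115 (Xap5 KO), 1905 ± 52.7 (Nono KO) and, for the Sox5 KO line, 1162 ± 2.56 (SD, n = 3 each). As a share of all counts the genes took 0.327% in WT and 0.365% in Sox5 KO, and 0.514% and 0.606% in Xap5 KO and Nono KO. The mixture differed too. Bgn made up 71.9% ± 0.918 of the sum per kb in WT (SD, n = 2), 85.3% ± 0.292 (Xap5 KO), 49.7% ± 2.46 (Nono KO) and, for the Sox5 KO line, 73.7% ± 1.31 (SD, n = 3 each). In Nono KO Aspn held 13.2% ± 1.77 and ranked next after Bgn and Dcn, which held 19.2% ± 0.0622 (SD, n = 3), whereas in WT Aspn held 0.274% (SD 0.0266, n = 2). Prelp held 4.72% in Xap5 KO and 5.59% in Nono KO, against 0.421% in WT.

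**Figure D4:**
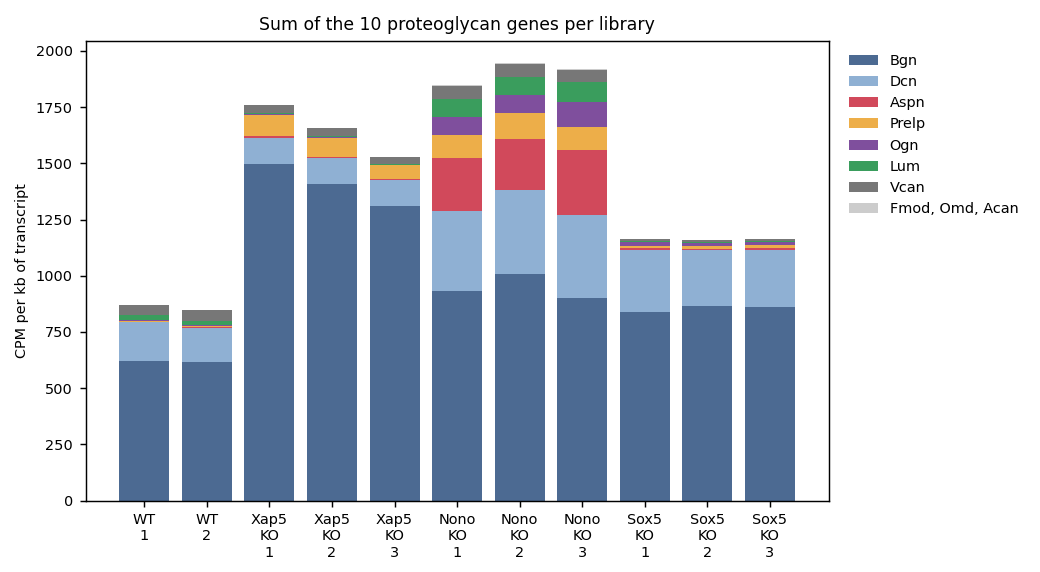
Summed level of the 10 genes in each library, in CPM per kb of longest transcript, stacked by gene. The sum runs from 848 in a WT library to 1948 in a Nono KO library. Bgn is the largest layer of each bar, from 46.9% of the sum in Nono KO replicate 3 to 85.6% in Xap5 KO replicate 3. In Nono KO Aspn, Prelp, Ogn and Lum form visible layers.

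The remaining genes of proteoglycan biology were counted on lists written from general knowledge. Of 10 other leucine-rich matrix genes, 7 were tested. In Xap5 KO 2 rose and 4 fell, in Nono KO 3 rose and 2 fell, and in Sox5 KO 1 rose and 1 fell, with medians of -0.49, 0.31 and -0.10 against medians near 0 over all genes. The shares called were 85.7%, 71.4% and 28.6%, against 45.5%, 48.6% and 60.9% of all tested genes in the lines Xap5, Nono and Sox5 KO. Some listed genes had under 10 counts in every library of one of the groups compared, so that passing the filter bore on their direction. Without Podn, of this kind in 2 comparisons, 2 rose and 3 fell in Xap5 KO and 1 rose and 0 fell in Sox5 KO. The medians were then -0.18 in Xap5 KO and -0.0053 in Sox5 KO. Ecm2 fell by 2.24 on the log2 scale in Xap5 KO (SE 0.613), from 54 and 50 counts in WT to 5, 18 and 8. Chadl fell by 2.58 in Xap5 KO and by 1.10 in Nono KO. Podnl1 had a mean of 10.5 CPM in WT, 7.48 CPM in Xap5 KO, 37.9 CPM in Nono KO and 24.3 CPM in Sox5 KO. Podn, a low gene, had 27 and 43 counts in WT and 180, 198 and 108 in Nono KO. Nyx rose by 1.63 in Xap5 KO, a call lost without WT replicate 2 (log2 1.27, edgeR adjusted p = 0.157), without Xap5 KO replicate 3 (log2 1.19, edgeR adjusted p = 0.131) and with the chromosome offset. In Nono KO Nyx fell by 2.55 (SE 0.592), near the floor with 16, 3 and 4 counts against 59 and 37 in WT. Of 10 other matrix proteoglycans, 8 were tested, with 0 higher and 2 lower in Xap5 KO, 1 and 3 in Nono KO, and 2 and 2 in Sox5 KO, or 25%, 50% and 50% called against 45.5%, 48.6% and 60.9% of all tested genes. Without the low genes Ncan, Spock1 and, outside Sox5 KO, Bcan, it was 0 and 0, 1 and 1, and 1 and 2. Perlecan (Hspg2), a large heparan sulfate proteoglycan of basement membranes, rose by 0.83 in Nono KO. It was at -0.96 in Sox5 KO, a fall that became 0.11 and was not called with the length and GC offset.

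Cell-surface proteoglycans had 9 tested members of 12. In Xap5 KO 0 rose and 5 fell, in Nono KO 2 rose and 4 fell, and in Sox5 KO 1 rose and 7 fell (6 without the low gene Gpc4), or 55.6%, 66.7% and 88.9% called against 45.5%, 48.6% and 60.9% of all tested genes. Glypican 4 (Gpc4) was at 33.7 CPM in the WT libraries, 1.40 CPM in the Xap5 KO libraries, 134 CPM in the Nono KO libraries and 0.0997 CPM in the Sox5 KO libraries, where it had 2, 7 and 0 counts. Syndecan 3 (Sdc3) fell by 2.15 in Sox5 KO and by 0.63 in Xap5 KO. Syndecan 2 (Sdc2) rose by 1.08 in Nono KO, while Gpc1 fell there by 0.92. Cspg4, known as NG2, had log2 changes of -0.68, -0.49 and -1.66 in the lines Xap5, Nono and Sox5 KO, and the call in Nono KO was lost with the length and GC offset (log2 -0.24).

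On the hyaluronan list 11 of 13 genes were tested, with 1 higher and 5 lower in Xap5 KO, 4 and 4 in Nono KO, and 2 and 4 in Sox5 KO. The shares called, 54.5%, 72.7% and 54.5%, compare with 45.5%, 48.6% and 60.9% of all tested genes. Has2, the main hyaluronan synthase of fibroblasts, fell by 1.62 in Xap5 KO (SE 0.249, edgeR adjusted p = 0.000574) and by 3.43 in Sox5 KO (SE 0.278, edgeR adjusted p = 3.47e-06). Vcan, which binds hyaluronan, also fell in those lines. In Nono KO Has2 was at 0.31 (SE 0.246, not called). The hyaluronan receptor Cd44 fell in each line, with log2 changes of -0.90, -1.31 and -1.54, and Cemip, which takes part in hyaluronan breakdown, rose in each line, with 1.20, 1.77 and 1.58.

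Enzymes that build the sugar chains were counted by the step they take part in. For the linker that joins a chain to the core protein, 6 of 7 genes were tested, and 1 rose in Xap5 KO, 2 fell in Nono KO, and 3 rose and 2 fell in Sox5 KO, all under 2-fold. That is 16.7%, 33.3% and 83.3% called, against 45.5%, 48.6% and 60.9% of all tested genes. Xylt1, an enzyme that starts the linker, was too low to test. Pxylp1, a phosphatase of the linker, fell by 0.81 in Nono KO. B3gat3 rose by 0.55 in Sox5 KO, a call lost with the chromosome offset (log2 0.15). Of 16 genes for chondroitin and dermatan sulfate, 13 were tested, with 2 higher and 6 lower in Xap5 KO, 3 and 5 in Nono KO, and 3 and 9 in Sox5 KO, or 61.5%, 61.5% and 92.3% called against 45.5%, 48.6% and 60.9% of all tested genes. The sulfotransferase Chst11 fell in each line, with log2 changes of -1.08, -0.37 and -1.76 in the lines Xap5, Nono and Sox5 KO, and so did Chst3, with -4.21, -2.43 and -2.27. Dse, the epimerase that turns chondroitin into dermatan sulfate, rose by 0.52 in Nono KO and fell in the other 2 lines, with -0.53 in Xap5 KO and -0.28 in Sox5 KO. It is on chromosome 10, and with the chromosome offset those values were -0.06 and 0.01, neither of them called. Chsy1, a chain polymerase, fell by 0.57 in Sox5 KO. Its -0.17 in Xap5 KO was not called here and was called under 6 alternatives.

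Keratan sulfate genes had 5 tested of 8, with 2 higher and 1 lower in Xap5 KO, 0 and 2 in Nono KO, and 2 and 1 in Sox5 KO. These shares of 60%, 40% and 60% compare with 45.5%, 48.6% and 60.9% of all tested genes. The sulfotransferase Chst1 rose by 1.62 in Xap5 KO and by 2.87 in Sox5 KO and fell in Nono KO, and Chst2 rose by 1.32 in Xap5 KO and by 0.80 in Sox5 KO. Among 7 genes for sulfate and sugar donors, all tested, 1 rose and 4 fell in Xap5 KO, 1 and 3 in Nono KO, and 0 and 4 in Sox5 KO, or 71.4%, 57.1% and 57.1% called against the same 45.5%, 48.6% and 60.9%. Ugdh, which makes UDP-glucuronate, fell in each line, with log2 changes of -0.57, -0.36 and -0.83 in the lines Xap5, Nono and Sox5 KO, and the call in Nono KO was lost with the chromosome offset (-0.15). The sulfate carrier Slc26a2 fell as well, with -0.55, -0.35 and -0.82. Papss2, which makes the sulfate donor, rose by 0.79 in Nono KO.

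Proteases that cut or mature proteoglycans had 8 tested of 9. In Xap5 KO 5 rose and 2 fell, in Nono KO 6 rose and 1 fell, and in Sox5 KO 5 rose and 1 fell, with medians of 0.70, 1.37 and 0.53 and 87.5%, 87.5% and 75.0% called against 45.5%, 48.6% and 60.9% of all tested genes. Adamts15, with 0 counts in WT, and Tll1, with 10 and 21 counts there and at most 10 elsewhere, were low genes. Without Adamts15, and without Tll1 in Xap5 KO and Sox5 KO, 4 rose and 1 fell, 5 rose and 1 fell, and 5 rose and 0 fell, with medians of 0.70, 0.84 and 0.53. Of the versican- and aggrecan-cutting enzymes on the list, Adamts1, Adamts5 and Adamts9 rose in each knockout line. Adamts4 did not rise in Xap5 KO (log2 -0.12, not called). Its mean was 15.3 CPM in WT, 14.1 CPM in Xap5 KO, 27.3 CPM in Nono KO and 15.8 CPM in Sox5 KO. Adamts1 rose by 1.00, 1.93 and 1.17 on the log2 scale in the lines Xap5, Nono and Sox5 KO, Adamts5 by 1.21, 1.90 and 0.48, and Adamts9 by 2.36, 2.68 and 0.88. Bmp1, which removes the propeptide of biglycan, rose by 0.58 in Sox5 KO. Its falls of 0.21 in Xap5 KO and in Nono KO were called, and each call was lost without either WT library and under other alternatives.

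**Figure D5:**
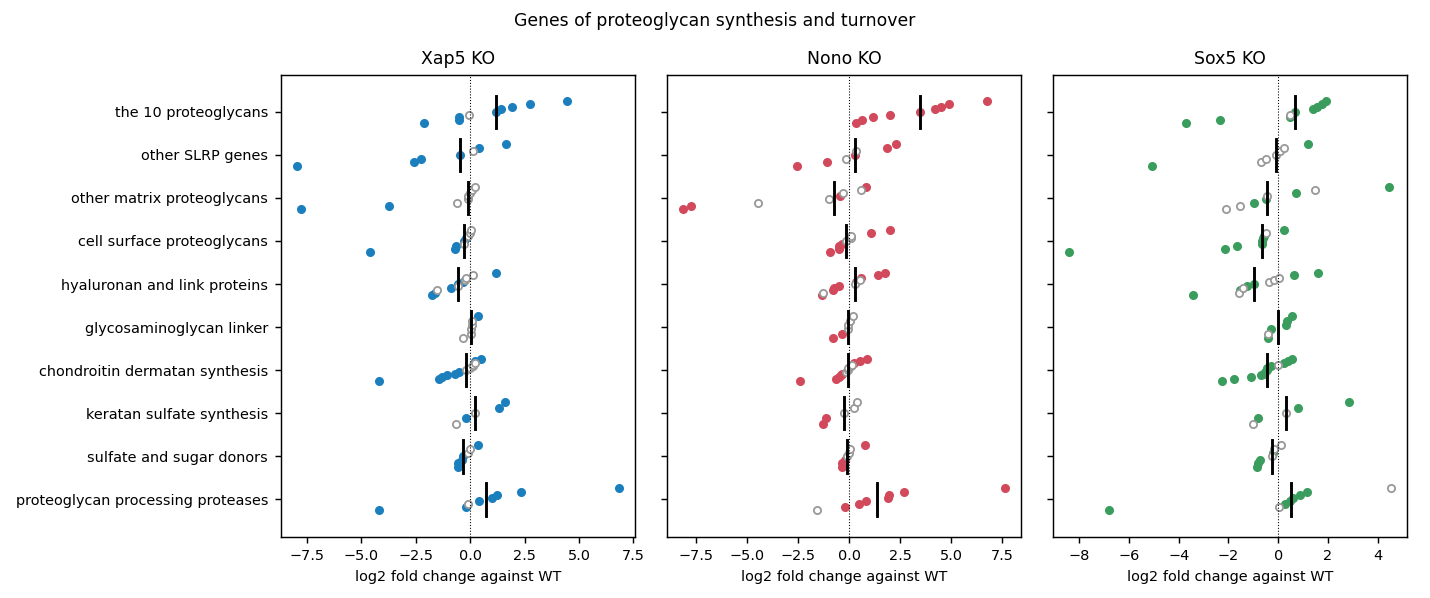
Log2 fold change against WT of every tested gene on 10 lists, one panel per knockout line; filled points are called, open points are not, and black bars are list medians. The 9 tested proteoglycans have a median of 3.46 in Nono KO with Fmod and 2.72 without it, and all linker genes lie within 2-fold of WT where called.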

How the data were processed

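RNA-seq libraries of 11 samples were analysed from 1 table of gene counts. Per the submitters' processing notes, HISAT2 2.1.0, StringTie 1.3.3b and DESeq2 1.12.4 were used and GRCm39 and mm39 are the builds named, with no role given; the counting step, annotation and strand handling are not given in the sources used here. The values the authors deposited were taken as estimated counts already rounded to whole numbers, since 3302 entries were 2 but just 857 were 1. If mates of a pair were counted separately, floors and intervals rest on fewer fragments.

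From these counts, edgeR 4.0.16 in R 4.3.3 was fitted once to all 11 libraries, with TMM scaling, 1 mean per group and no replicate block. Genes were kept by edgeR's filter (count at least 10, total at least 15), and 13332 of 21684 passed. Contrasts were tested with the robust quasi-likelihood test and p-values were adjusted by Benjamini-Hochberg over all tested genes. The depth was 30205878 to 43498383 counts per library and the common biological coefficient of variation was 10.6%. CPM values use TMM-scaled library sizes, and CPM per kb divides them by the longest transcript. Intervals and floors cover counting error only. The script was tested on simulated data. Chromosomes, transcript lengths and GC content came from GENCODE M21 (GRCm38), which matched 21540 of the 21684 gene IDs, so gene positions are given only as chromosome and order. Alternatives were DESeq2 1.42.0, other scalings and filters, a replicate block, offsets for chromosome or for length and GC content, fits of the compared groups alone, and leaving out each library.

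The members and the lists were chosen with earlier results of these data known. All members are named. On the other lists the named genes are 16 fixed names and, per list, the 2 largest called changes. These changes were taken among genes with a mean of at least 1 CPM in WT or the knockout. Sox9, Adamts4, Podnl1, the cluster neighbours, single cell type markers and low genes left out of list counts were added after their values were seen. List counts without genes under 10 counts in every library of either group compared were also added after seeing the data.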

Additional observations from a re-analysis of the deposited data

How the results depend on the processing

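Over 20 alternatives, 1073 values of the 54 tests on the proteoglycan genes were recomputed, of which 1047 kept their direction and their side of the threshold, 16 lost a call, 6 gained one and 4 changed sign. The counts of called members moved by less than 1.5 times in every alternative. The sign changes were Bgn between Xap5 KO and Nono KO with the chromosome offset (-0.17), Fmod in Sox5 KO without Sox5 KO replicate 3 (-0.33), and Ogn in Xap5 KO without WT replicate 1 (0.01) and without Xap5 KO replicate 3 (0.22). Leaving out 1 library at a time, Fmod in Sox5 KO ranged from -0.33 to 1.08. Of these 4, the Bgn value alone was called in both fits. The cause was not tested.

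Deviations of same-numbered libraries of different groups were at most weakly correlated (-0.0226 to 0.0465 over 15 pairs). Pairs with different numbers had -0.0465 to 0.0165 over 30 pairs. Of the 11 libraries, 10 correlated best with one of their own number, a hint from the data and not from the design. With the replicate block, 8, 9 and 8 members were called against WT in the lines Xap5, Nono and Sox5 KO, as without it, and no member's call changed. The number of called genes in Sox5 KO went from 8121 to 7911 with the block. With library totals as the scaling, the all-gene median moved by -0.16 for Nono KO, -0.11 for Sox5 KO and 0.11 between Xap5 KO and Nono KO. This lowered the share of higher genes among the calls in Nono KO from 48.4% to 30.2% and raised it between Xap5 KO and Nono KO from 51.1% to 64.3%. In Nono KO against WT, Aspn and Vcan were then at 6.57 and 0.16 and still called. Depth limits Acan, Fmod and Omd, and with 2 WT libraries the contrasts with WT rest on the fewest samples. Among the named genes of the other lists, 42 of 1669 recomputed values changed their call.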

Other observations

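The genes whose log2 changes against WT lay nearest to those of a member were taken from 11544 other genes with a mean of at least 1 CPM, by the largest gap over the 3 knockout comparisons, which share the WT libraries. Sdc3, a cell-surface heparan sulfate proteoglycan, was nearest to Vcan with a largest gap of 0.23. Its values were -0.63 (Xap5 KO), 0.10 (Nono KO) and -2.15 (Sox5 KO). Ppp1r3e was nearest to Bgn (0.07), Mrgprf to Dcn (0.17), Ahrr to Lum (0.49) and Il33 to Ogn (0.65). Col5a2, a fibrillar collagen chain, was second nearest to Omd (0.61), with 1.88 (Xap5 KO), 2.86 (Nono KO) and 1.43 (Sox5 KO). Aspn had no gene within 1 log2 unit, the nearest being Abca8a at a gap of 1.07.

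On chromosome 13, Edil3, which codes for a secreted integrin-binding protein and lies 2 genes from Vcan, stood at 121 and 113 CPM in WT and 17.4 to 21.3 CPM in Xap5 KO. It was at 100.1 to 113 CPM in Nono KO, and it had 0, 6 and 0 counts in Sox5 KO. Xrcc4, on the other side of Vcan, changed by -0.80 in Sox5 KO (SE 0.229, edgeR adjusted p = 0.00472).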
